A study of Mus musculus with 10 samples.

Results

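The desmosome genes Dsp, Dsg2, Dsc2, Jup, Pkp1, Pkp2, Pkp3, Ppl, Evpl and Perp were described in mouse thyroid tumours. They were chosen by gene symbol, and 10 of the 10 were found among 19938 named genes, each with 1 probe set. RNA from 5 anaplastic thyroid carcinomas (ATC) and 5 papillary thyroid carcinomas (PTC) was hybridised to Affymetrix whole-transcript arrays, 1 array per tumour. The ATC tumours carried TPOCreER, BrafV600E and p53 -/-, whereas TPOCreER and BrafV600E alone are listed for the PTC tumours, both on a mixed C57BL/6;129SvJae strain. TPOCreER is a tamoxifen-dependent Cre recombinase under the thyroid peroxidase promoter, so the recombination is directed to thyroid epithelial cells and not to the other cells of a tumour. Every tumour shared the Braf allele, and histology and p53 genotype changed together, so tumour type and p53 status cannot be told apart. The labels used here give no age, and they call the tumours biological replicates without saying that each came from a separate animal. The spread between tumours may therefore not be a spread between animals. Tumours that shared an animal would not be independent, and the p-values given here could then be too small.

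Desmosomes are cell-to-cell junctions that tie the intermediate filaments of neighbouring epithelial cells together. Desmogleins and desmocollins, the desmosomal cadherins, bind across the gap between cells. Their tails hold the armadillo proteins plakoglobin and the plakophilins, and these hold desmoplakin, which grips the keratin filaments. Thyroid follicles are built from polarised epithelial cells joined by such junctions, and loss of cell adhesion is a classical feature of anaplastic carcinoma.

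The values are deposited log2 probe set intensities, a difference is always ATC minus PTC, and each mean carries its SD over the 5 tumours of a group (n = 5). Adjusted p-values come from limma with Benjamini-Hochberg adjustment over all 19938 genes, at a threshold of 0.05. Levels of different genes are not compared, since probe sets differ in their response. Tumours are whole pieces of tissue, so fewer epithelial cells and less RNA per epithelial cell cannot be told apart.

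Of the 10 genes, 2 were matched to a promoter window, Jup and Dsp, and both windows are shown. These genes encode the links from the cadherins to the filaments, and ATC replicates 5 and 2 were the highest ATC tumours for both. Both are 300 bases long, from RefSeq on GRCm38.p6, and run 5′ to 3′ from 250 bases before the start site to 50 after it. Capitals mark matches on either strand to CACCTG (an E box bound by SNAI and ZEB factors), ACCGGTT (Grainyhead-like factors), CACCC (Kruppel-like factors) or TGANTCA (AP-1), and no matches overlapped. Jup lies on the minus strand at chr11:100397741-100398040 and Dsp on the plus strand at chr13:38151044-38151343.
Jup: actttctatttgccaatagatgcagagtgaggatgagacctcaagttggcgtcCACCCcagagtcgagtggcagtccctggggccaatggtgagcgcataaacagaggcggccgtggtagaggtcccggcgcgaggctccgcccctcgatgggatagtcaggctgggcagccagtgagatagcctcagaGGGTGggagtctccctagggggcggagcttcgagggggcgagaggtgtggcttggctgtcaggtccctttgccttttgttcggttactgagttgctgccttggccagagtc
Dsp: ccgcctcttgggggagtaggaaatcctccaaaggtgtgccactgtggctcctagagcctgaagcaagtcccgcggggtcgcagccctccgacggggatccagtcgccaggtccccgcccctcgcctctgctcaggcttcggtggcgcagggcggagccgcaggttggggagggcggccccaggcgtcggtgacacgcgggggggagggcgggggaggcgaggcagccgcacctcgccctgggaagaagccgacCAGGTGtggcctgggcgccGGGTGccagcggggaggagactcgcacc

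The Dsp window held 1 E box, found as its reverse complement and beginning at base 4 from the start site, and Jup held 0. Among 32851 mouse promoter windows of this length, 20.2% held the E box. CACCC or its reverse complement was found 1 time in Dsp and 2 times in Jup, against 57.5% of all windows with at least 1 match. Neither window held ACCGGTT or TGANTCA, which were present in 1.02% and 7.81% of all windows. The windows were rich in G and C, at 60.7% in Jup and 73% in Dsp, against a median of 52.7% over all windows. These matches describe letters in the windows and were not tested for binding.

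Desmosome genes were lower in ATC almost throughout. Of the 10 genes, 9 passed the threshold and were lower, 0 were higher and Evpl did not pass, while 9.72% of all genes were called lower and 11.5% higher, together 21.2%. The median difference was −1.05, against −0.018 over all genes. All 5 ATC tumours lay below all 5 PTC tumours for 8 of the 10, compared with 7.74% of all genes, and above them for 0 of the 10, compared with 9.13%. Genes called lower by at least 1 log2 unit made up 2.45% of all genes, and 5 of the desmosome genes were among them (Dsc2, Dsg2, Dsp, Jup and Perp). The mean of the 10 genes in each tumour was 7.84 ± 0.33 in ATC and 8.99 ± 0.16 in PTC.

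**Figure D1:**
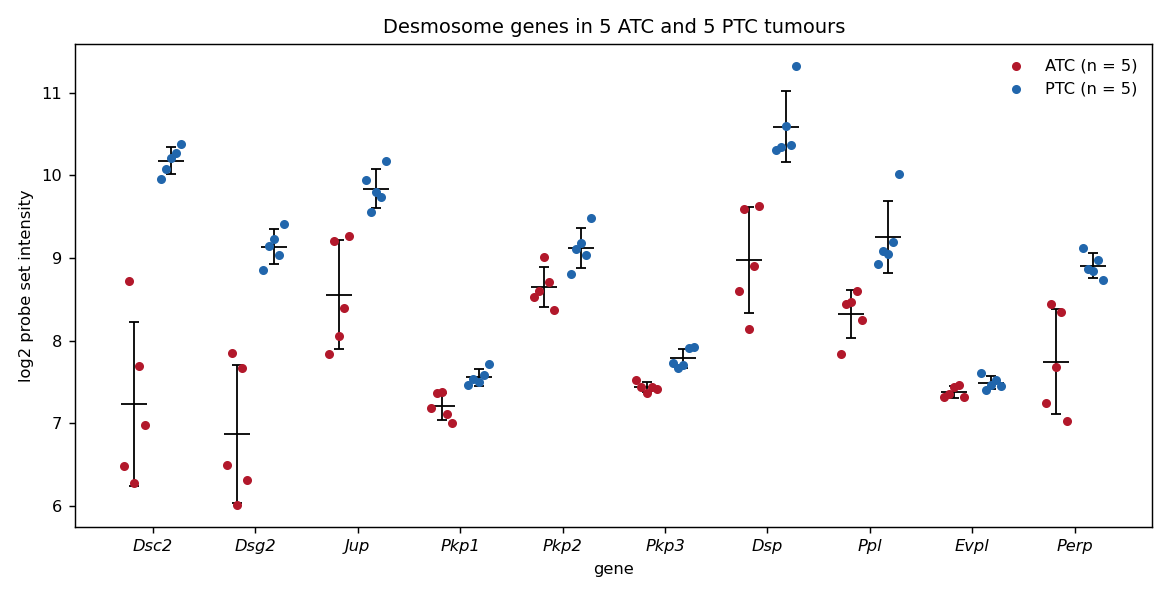
Log2 probe set intensity (vertical axis) of the 10 desmosome genes (horizontal axis), with a point per tumour in replicate order, ATC in red left of PTC in blue, and black bars for the mean ± SD (n = 5). The ATC points lie below all PTC points in 8 genes, and the groups overlap for Pkp2 and Evpl.

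The desmosomal cadherins had the largest differences. Dsc2 (probe set 10457686), which encodes desmocollin 2, was at 6.49, 8.72, 6.28, 7.69 and 6.98 in ATC replicates 1 to 5, against 9.95, 10.08, 10.20, 10.26 and 10.38 in PTC replicates 1 to 5. The PTC tumours were close together, whereas the ATC tumours were spread widely, and the highest of them was still 1.23 below the lowest PTC tumour. Its means were 7.23 ± 0.99 in ATC and 10.17 ± 0.16 in PTC, a 7.69-fold lower level in ATC (difference −2.94, SE 0.38, 95% interval −3.78 to −2.10, adjusted p = 0.000472).

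Dsg2 (probe set 10454172), which encodes desmoglein 2, the desmoglein of simple epithelia, was at 6.50, 7.85, 6.01, 7.67 and 6.31 in ATC, against 8.86, 9.14, 9.23, 9.04 and 9.42 in PTC. ATC replicates 2 and 4 had the most Dsg2 among ATC tumours, as they did for Dsc2, and the groups were 1.01 apart. The difference was −2.27 (SE 0.33, 95% interval −2.99 to −1.55, adjusted p = 0.000824), a 4.82-fold lower level in ATC. On this scale the difference of Dsc2 was larger than that of Dsg2: the difference of differences, Dsg2 minus Dsc2, was 0.67 (SE 0.18, 95% interval 0.25 to 1.10). It was larger in 5 of 5 ATC tumours than in any PTC tumour (exact two-sided permutation test, p = 0.00794, the smallest that 252 assignments allow, adjusted p = 0.0238 over 6 pairs of related genes). That call ended without PTC replicate 1 or 4 (0.66 and 0.63, exact permutation test, adjusted p = 0.0635 and 0.0714). In ATC replicates 1, 3 and 5, Dsg2 lay at 6.01 to 6.50 and Dsc2 at 6.28 to 6.98, against array lower quartiles of 6.02 to 6.14. Detection above background is not given, and whether a floor of either probe set limits its difference, and with it this comparison, was not tested.

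The other desmosomal cadherin genes lie beside these in one cluster, and of the 5 measured, Dsc3 was lower in ATC and the other 4 did not pass. Dsc3, a desmocollin best known from stratified epithelia, was at 5.82, 6.42, 6.13, 6.17 and 5.78 in ATC, against 7.59, 6.99, 7.23, 7.17 and 7.18 in PTC (difference −1.17, SE 0.14, adjusted p = 0.000321). All of its ATC values lay below all PTC values. Dsg3, the desmoglein of basal keratinocytes, was at 5.68 ± 0.23 in ATC and 5.97 ± 0.15 in PTC (difference −0.29, adjusted p = 0.0990). Dsg1b, Dsg1c and Dsg4, genes of skin and hair, differed by −0.021, 0.060 and −0.0013, with adjusted p-values of 0.706 to 0.995. The Dsg1 genes are near-identical copies whose probe sets were not checked for shared signal, and Dsg1a and Dsc1 are not analysed here.

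In the RefSeq gene order on mouse chromosome 18, the nearest protein-coding neighbour on the Dsc3 side was Cdh2 and on the Dsg2 side Ttr. Cdh2, which encodes N-cadherin, a classical cadherin of mesenchymal and neural cells, was at 9.61 ± 0.40 in ATC and 6.49 ± 0.25 in PTC, a rise of 3.12 (SE 0.19, adjusted p = 1.25e-05). Ttr, which encodes the thyroid hormone carrier transthyretin, was at 5.70 ± 0.12 in ATC and 5.80 ± 0.03 in PTC (difference −0.094, adjusted p = 0.390). Across this stretch, Cdh2 was higher in ATC, Dsc3, Dsc2 and Dsg2 were lower, and the genes between Dsc2 and Dsg2 that were measured did not pass. In both groups, the means of Dsg1b, Dsg1c, Dsg4, Dsg3 and Ttr were 5.13 to 5.97. The array lower quartiles were 6.02 to 6.19, and whether these genes were detected above background is not known. Dsc3, at 5.78 to 6.42 in ATC, shares this limit in that group.

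**Figure D2:**
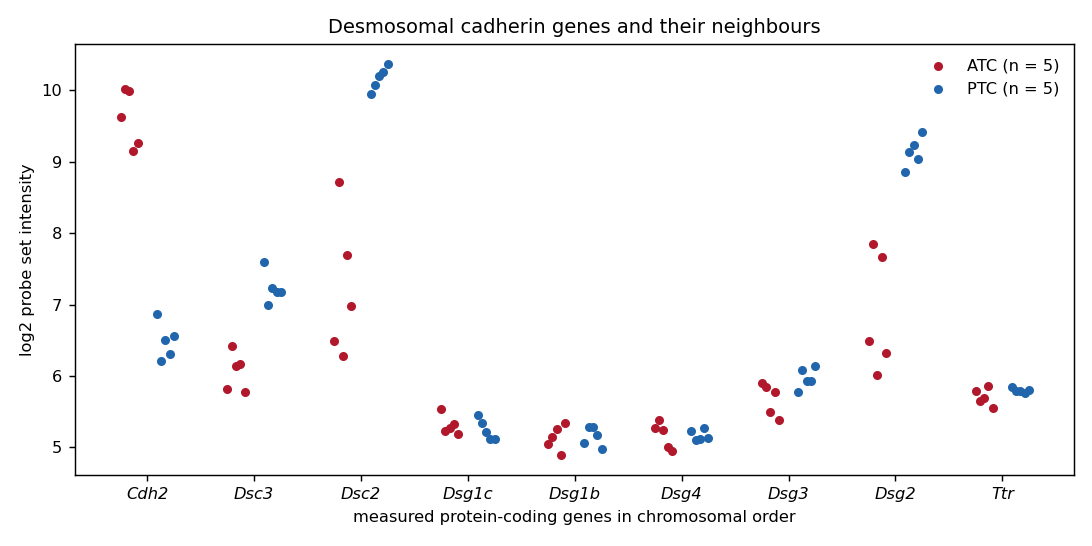
Log2 probe set intensity (vertical axis) of the measured protein-coding genes of the desmosomal cadherin cluster and the gene on each side, in chromosomal order (horizontal axis, not to distance), with a point per tumour, ATC in red left of PTC in blue (n = 5 each). Cdh2 is higher in every ATC tumour, and Dsc3, Dsc2 and Dsg2 are lower in every ATC tumour.

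Among the armadillo proteins, plakoglobin fell most. Jup (probe set 10391103), which encodes plakoglobin, the catenin shared by desmosomes and adherens junctions, was at 7.83, 9.21, 8.06, 8.39 and 9.27 in ATC, against 9.94, 9.56, 9.79, 9.73 and 10.17 in PTC. ATC replicates 2 and 5 stood well above the other 3 ATC tumours, and replicate 5, the higher, lay 0.29 below the lowest PTC tumour. The means were 8.55 ± 0.66 in ATC and 9.84 ± 0.23 in PTC, a 2.44-fold lower level in ATC (difference −1.29, SE 0.27, 95% interval −1.87 to −0.70, adjusted p = 0.00584). Its close relative Ctnnb1, which encodes β-catenin, was at 11.08 ± 0.16 in ATC and 11.28 ± 0.11 in PTC (difference −0.20, adjusted p = 0.149), and it passed without ATC replicate 5 (−0.26, adjusted p = 0.0440).

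The plakophilins, which cluster the desmosomal cadherins and bind desmoplakin, differed by less than 0.5 each. Pkp1 (probe set 10358124), the plakophilin of stratified epithelia, was at 7.18, 7.37, 7.38, 7.11 and 6.997 in ATC, against 7.46, 7.53, 7.50, 7.58 and 7.72 in PTC. The groups were separated by 0.081, and the difference was −0.35 (SE 0.09, 95% interval −0.55 to −0.16, adjusted p = 0.0166). Pkp3 (probe set 10558795), found in desmosomes of most epithelia, was at 7.53, 7.44, 7.36, 7.44 and 7.41 in ATC, against 7.73, 7.67, 7.70, 7.91 and 7.92 in PTC. It was the member with the tightest ATC values, and it fell by 0.35 (SE 0.07, 95% interval −0.51 to −0.19, adjusted p = 0.00558).

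Pkp2 (probe set 10433887), the plakophilin of simple epithelia and heart, was at 8.53, 8.599, 9.01, 8.71 and 8.37 in ATC, against 8.81, 9.10, 9.18, 9.03 and 9.48 in PTC. The groups overlapped, because ATC replicate 3 lay above PTC replicate 1. The difference was −0.48 (SE 0.14, 95% interval −0.78 to −0.17, adjusted p = 0.0309). That call ended without ATC replicate 1, 2 or 5 or PTC replicate 2, 3, 4 or 5 (−0.50 to −0.39, adjusted p 0.0514 to 0.0688).

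The plakophilin differences were compared with each other in exact two-sided permutation tests over tumours. Pkp1 minus Pkp3 was −0.0039 (95% interval −0.21 to 0.20, exact adjusted p = 0.960). Pkp1 minus Pkp2 was 0.12 (95% interval −0.12 to 0.37, exact adjusted p = 0.405), and Pkp3 minus Pkp2 was 0.13 (95% interval −0.24 to 0.49, exact adjusted p = 0.524). No difference between the plakophilins was detectable, and the intervals allow up to 0.49 log2 units. Pkp4, a p0071-type relative found mainly at adherens junctions, was at 9.20 ± 0.27 in ATC and 9.61 ± 0.18 in PTC (difference −0.41, adjusted p = 0.0475). Its call ended without any single array other than ATC replicate 3 (−0.46 to −0.33, adjusted p 0.0515 to 0.106).

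The plakins divided by size of change. Dsp (probe set 10404649), which encodes desmoplakin, the obligate link to the keratin filaments, was at 8.59, 9.59, 8.14, 8.90 and 9.63 in ATC, against 10.30, 10.34, 10.60, 10.37 and 11.32 in PTC. As for Jup, ATC replicates 5 and 2 were the highest ATC tumours, and PTC replicate 5 was the highest of all. The means were 8.97 ± 0.64 in ATC and 10.59 ± 0.43 in PTC, a 3.06-fold lower level in ATC (difference −1.61, 95% interval −2.26 to −0.97, adjusted p = 0.00296). Dsp minus Jup differed by −0.33 (95% interval −0.72 to 0.062, exact permutation test, adjusted p = 0.175), which did not pass the threshold.

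Ppl (probe set 10437516), which encodes periplakin, a plakin of the desmosome and the cornified envelope, was at 7.84, 8.44, 8.46, 8.603 and 8.25 in ATC, against 8.93, 9.09, 9.05, 9.19 and 10.02 in PTC. The groups were 0.32 apart, with ATC replicate 1 lowest and PTC replicate 5 far above the other PTC tumours. The difference was −0.93 (SE 0.20, 95% interval −1.38 to −0.48, adjusted p = 0.00777). Evpl (probe set 10393197), which encodes envoplakin, the partner of periplakin, was at 7.31, 7.35, 7.44, 7.46 and 7.32 in ATC, against 7.61, 7.40, 7.47, 7.52 and 7.45 in PTC.

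The Evpl groups overlapped, with a difference of −0.11 (95% interval −0.26 to 0.029, adjusted p = 0.259). On this scale the difference of Ppl was larger than that of Evpl: Evpl minus Ppl was 0.82 (SE 0.24, 95% interval 0.27 to 1.37, higher in 5 of 5 ATC tumours than in any PTC tumour, exact permutation test, p = 0.00794, adjusted p = 0.0238). Evpl, Pkp1 and Pkp3 all had values near the array medians of 7.25 to 7.34, and whether a floor of the Evpl probe set bears on this comparison was not tested.

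Perp (probe set 10361887), which encodes a membrane protein of desmosomes and is a direct target of p53, was at 7.24, 8.44, 7.68, 8.34 and 7.03 in ATC, against 9.12, 8.86, 8.84, 8.98 and 8.73 in PTC. ATC replicates 2 and 4 were closest to the PTC tumours, with replicate 2 at 0.29 below the lowest of them, and the other 3 ATC tumours were lower still. The difference was −1.16 (SE 0.25, adjusted p = 0.00720), a 2.24-fold lower level in ATC. Among 15 other measured p53 targets, 7 were lower, 0 were higher and 8 did not pass, with a median of −0.31. Cdkn1a and Bax are not analysed here. The lower call of Ei24 (−0.31) ended without ATC replicate 1 or 3 or PTC replicate 2 or 4 (adjusted p 0.0541 to 0.0643). That of Zmat3 (−0.38) ended without ATC replicate 1 (adjusted p = 0.0530). The count of higher targets was 1 without ATC replicate 3 (Sesn1, 0.41) or ATC replicate 4 (Plk2, 0.87). Btg2, an antiproliferative gene, differed by −1.17, Trp53inp1, a gene of the p53 stress response, by −1.03, and Eda2r, a receptor of the TNF family, by −0.87, all past the threshold. Mdm2, whose product marks p53 for degradation, was at 9.60 ± 0.05 in ATC and 9.78 ± 0.07 in PTC (−0.18, adjusted p = 0.0541).

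**Figure D3:**
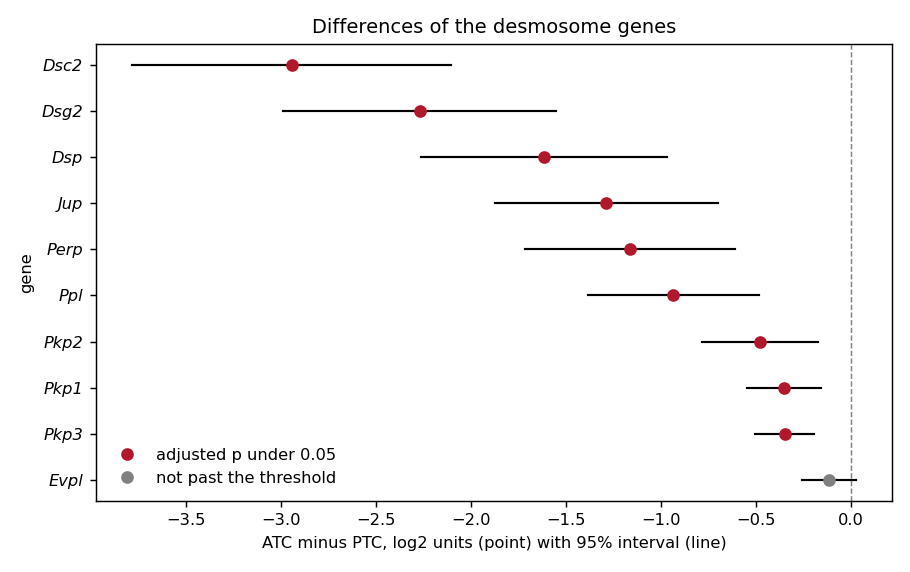
Difference ATC minus PTC in log2 units (horizontal axis) for each desmosome gene (vertical axis), with 95% limma intervals as lines and points in red where the adjusted p was under 0.05. The differences run from −2.94 for Dsc2 to −0.11 for Evpl, the only interval that includes 0.

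The ATC tumours differed among themselves more than the PTC tumours in 6 of the 10 genes, and the SD was larger in ATC for 68.6% of all genes. The SD ratio of ATC over PTC was 6.04 for Dsc2, 4.28 for Perp, 3.99 for Dsg2 and 2.85 for Jup. It was below 1 for Pkp2, Pkp3, Ppl and Evpl, at 0.50 to 0.98. The SDs among ATC tumours were 0.64 to 0.99 for the 5 genes lower by at least 1 log2 unit and 0.059 to 0.29 for the other 5.

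The genes did not rank the ATC tumours in 1 order. ATC replicate 2 was highest for Dsc2, Dsg2 and Perp, replicate 5 for Dsp and Jup, replicate 3 for Pkp1 and Pkp2, replicate 4 for Ppl and Evpl, and replicate 1 for Pkp3. Relative to the PTC mean, ATC replicate 5 stood at −0.96 for Dsp and −0.57 for Jup, the smallest differences of any ATC tumour, and at −1.88 for Perp, the largest. ATC replicate 3 stood at −3.90 for Dsc2, −3.12 for Dsg2 and −2.44 for Dsp, the largest of the 5 tumours, and at −0.11 for Pkp2, the smallest.

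The order of the ATC tumours for Dsc2, from high to low, was 2, 4, 5, 1 and 3, and 0.712% of all genes had that order. Grhl2, an epithelial transcription factor gene, and Tg, the thyroglobulin gene, had the same order, and no other desmosome gene had it. Epcam, the epithelial cell adhesion molecule, was at 6.34, 9.92, 6.58, 9.31 and 8.38 in ATC, against 10.57 to 11.02 in PTC (difference −2.73, adjusted p = 0.00838). It too was highest in ATC replicates 2 and 4 and lowest in 1 and 3. Cdh1, which encodes E-cadherin, ran likewise, at 7.57, 10.13, 8.28, 9.53 and 9.09 in ATC, against 11.21 to 11.45 in PTC. Krt8 and Krt18, keratin genes of simple epithelia, ran otherwise. Their ATC orders, from high to low, were 3, 1, 2, 5 and 4 for Krt8, and 3, 1, 2, 4 and 5 for Krt18. Tg was at 7.17, 12.001, 6.84, 11.48 and 10.23 in ATC, against 12.72, 11.28, 12.08, 12.58 and 12.88 in PTC, and the part of epithelial cell content in the desmosome differences was not tested.

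**Figure D4:**
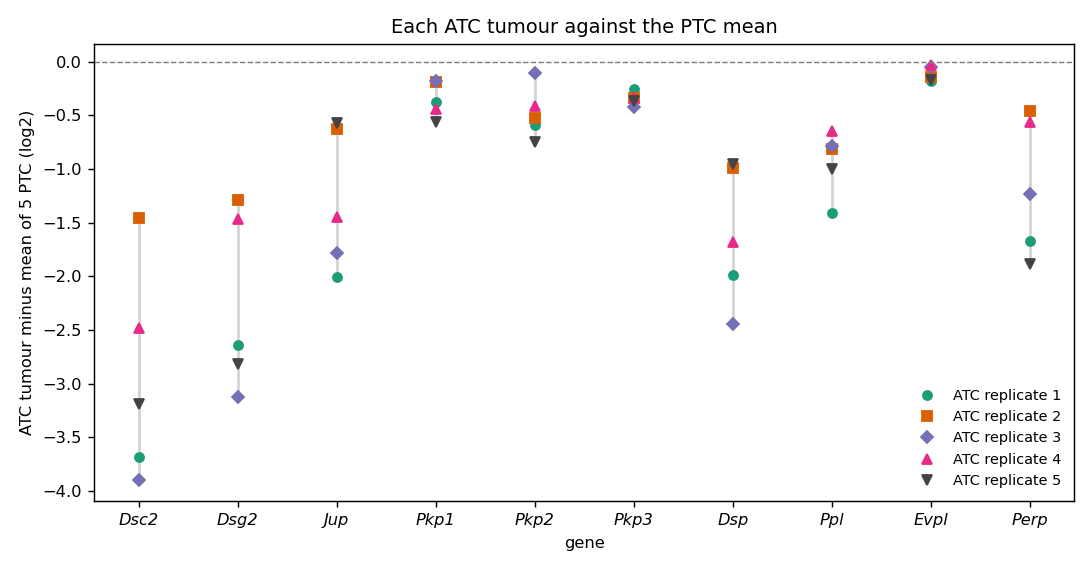
Each ATC tumour's value minus the mean of the 5 PTC tumours in log2 units (vertical axis) for the 10 desmosome genes (horizontal axis), with a symbol per ATC tumour and a grey line over their range. Replicate 2 is highest for Dsc2, Dsg2 and Perp, and replicate 5 is highest for Dsp and Jup but lowest for Perp.

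In PTC, replicate 5 was the highest of its group for 8 of the 10 genes, the exceptions being Evpl and Perp, and it was the highest PTC tumour for 32.9% of all genes. PTC replicate 1 was the lowest for 6 of the 10, and the share of all genes for which it was lowest was not computed. Leaving out ATC replicates 2 and 5 and PTC replicate 5 together, a choice made after seeing the data, left 8 genes lower and 0 higher, with a median of −0.98, and 8.57% of all genes lower. Pkp2 no longer passed in that fit (−0.28, adjusted p = 0.203).

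The arrays themselves were alike in level. The array with the widest distribution was ATC replicate 5, with quartiles of 6.02 and 8.72, against lower quartiles of 6.10 to 6.19 and upper quartiles of 8.57 to 8.64 on the other 9. It also had the lowest array weight, 0.38.

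Filaments and other junctions gave a mixed picture beside the desmosome. Of 13 intermediate filament genes, 6 were lower, 1 was higher and 6 did not pass (median −0.30). Krt7, Krt20 and Krt19, keratins of simple epithelia, were lower, with differences of −3.14, −3.12 and −2.92 (adjusted p = 0.00350, 0.00366 and 0.000850). Krt8, by contrast, the simple epithelial keratin that pairs with Krt18, was at 11.38, 11.31, 11.58, 10.78 and 10.82 in ATC, against 11.31, 11.52, 11.45, 11.63 and 11.47 in PTC. The groups overlapped for Krt8 (difference −0.30, adjusted p = 0.190) and for Krt18 (−0.21, adjusted p = 0.583). ATC replicate 3, which was lowest for Dsc2, Dsg2 and Dsp, was the highest ATC tumour for Krt8 and Krt18. Vim, the vimentin gene, was higher in ATC by 0.60 (adjusted p = 0.00109), and the basal keratin genes Krt5 and Krt14 were lower, with differences of −0.63 and −0.79 (adjusted p = 0.0167 and 0.000669).

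Of 12 adherens junction genes, 6 were lower, 2 were higher and 4 did not pass (median −0.27). Besides Cdh2 and Cdh1 (−2.43, SE 0.39, adjusted p = 0.00136), Nectin2, an immunoglobulin-type adhesion molecule, was lower (−0.71, adjusted p = 0.000450). Ctnna1, which encodes α-catenin, was lower (−0.53, adjusted p = 0.00391). Ctnnd1, which encodes p120 catenin, was lower (−0.30, adjusted p = 0.0238), a call that ended without ATC replicate 1 or PTC replicate 2, 3 or 5 (−0.30 to −0.26, adjusted p 0.0520 to 0.0581). Of 15 tight junction genes, 13 were lower, 0 were higher and 2 did not pass (median −0.81). Among the lower were Patj, a polarity scaffold (−1.89), Marveld2, the tricellulin gene (−1.74), and F11r, the junctional adhesion molecule A gene (−1.31). The lower call of Crb3 (−0.38) ended without PTC replicate 4 or 5 (adjusted p 0.0502 to 0.0512).

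Of 6 gap junction genes, 2 were lower, 1 was higher and 3 did not pass (median −0.41). The connexin genes Gjb1 and Gjb2 were lower, with differences of −1.80 and −0.62, and Gjc1, also a connexin gene, was higher by 1.12 (adjusted p = 1.82e-05). Of 11 other plakin and hemidesmosome genes, 5 were lower, 2 were higher and 4 did not pass (median −0.20). Of the lower genes, Itgb4 (−0.48, adjusted p = 0.0396) lost its call without ATC replicate 3, 4 or 5 or PTC replicate 1, 3, 4 or 5. Its adjusted p was then 0.0513 to 0.0809. Lama3 and Lamb3, which encode chains of an epithelial basement membrane laminin, differed by −1.64 and −1.20 and the anchoring filament gene Lad1 by −0.98, with adjusted p-values of 0.000125 to 0.000388. The plakin gene Dst rose instead, by 0.88 (SE 0.14, adjusted p = 0.00125). Plec, the plectin gene, was higher by 0.66 (adjusted p = 0.0293), a call that ended without ATC replicate 1, 3 or 5 or PTC replicate 1, 2, 3 or 4 (0.57 to 0.67, adjusted p 0.0570 to 0.0687), which left 1 gene higher.

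**Figure D5:**
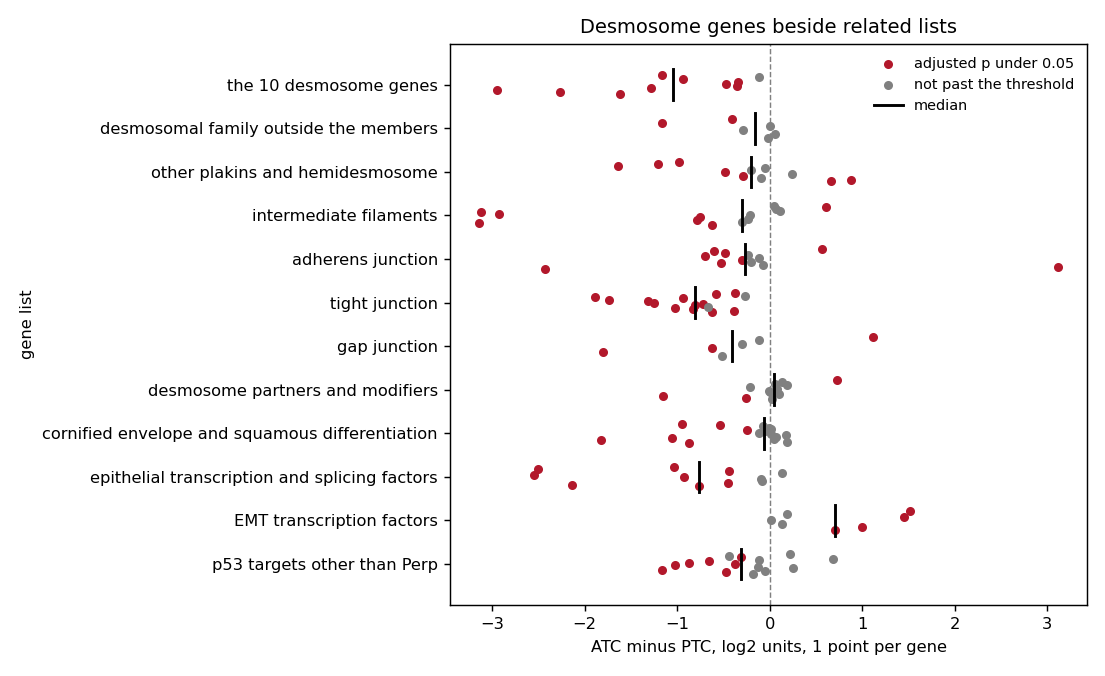
Difference ATC minus PTC in log2 units (horizontal axis) for every measured gene of the desmosome set and 11 related lists (vertical axis), 1 point per gene, red where the adjusted p was under 0.05, with a black bar at each median. The medians are −1.05 for the desmosome genes, −0.81 for tight junctions, −0.27 for adherens junctions and 0.70 for EMT transcription factors.

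Of 12 genes that act on or bind desmosomes, 2 were lower, 1 was higher and 9 did not pass (median 0.041). Over all genes, 21.2% were called in either direction. Prmt1, an arginine methyltransferase reported to modify plakophilin 2, was higher by 0.73 (adjusted p = 0.00110). Pof1b, an actin-binding protein found at desmosomes, was lower (−1.15, adjusted p = 0.0268), and so was Kazn, which encodes the periplakin-binding protein kazrin (−0.26, adjusted p = 0.0385). The Pof1b call ended without ATC replicate 1, 3 or 5 or PTC replicate 1, 2 or 3 (−1.12 to −0.99, adjusted p 0.0579 to 0.0662). The Kazn call ended without ATC replicate 1, 3 or 5 or PTC replicate 1, 3, 4 or 5 (−0.26 to −0.22, adjusted p 0.0689 to 0.0868), so that 0 or 1 of the 12 stayed lower without any 1 of these arrays. The calcium pump genes Atp2a2 and Atp2c1, mutated in human skin diseases with loss of desmosomal adhesion, differed by 0.054 and 0.13 (adjusted p = 0.581 and 0.413).

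Of 16 cornified envelope and squamous differentiation genes, 6 were lower, 0 were higher and 10 did not pass (median −0.061). Of the lower genes, Ivl and Krt10 (−0.87 and −0.25) both lost their calls without ATC replicate 1 or 3 or PTC replicate 4. Tgm1, the transglutaminase that crosslinks envelope proteins, differed by −1.82 (adjusted p = 0.00107), Scel, the sciellin gene, by −1.06 (adjusted p = 0.0130) and Sfn, the stratifin gene, by −0.95 (adjusted p = 0.000300). Of 6 measured desmosomal relatives outside the set, Dsc3 and Pkp4 were lower, 0 were higher and 4 did not pass (median −0.16). With the Pkp4 call lost, as above, 1 of the 6 was lower.

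Epithelial transcription and splicing factors were lower and several EMT factors higher. Of 11 measured epithelial factors, 8 were lower, 0 were higher and 3 did not pass (median −0.76). Of the lower factors, Klf5 (−0.44, adjusted p = 0.0276) lost its call without ATC replicate 1, 4 or 5 or PTC replicate 2, 4 or 5. Its adjusted p was then 0.0517 to 0.0664. Ehf, an ETS factor of epithelia, and Esrp1, an epithelial splicing regulator, differed by −2.55 and −2.50 (adjusted p = 0.000282 and 0.00109). The Grainyhead-like genes, which encode activators of junction genes, were all lower, at −2.14 for Grhl2, −0.76 for Grhl1 and −0.45 for Grhl3 (adjusted p = 0.00136, 0.000800 and 0.00104). Of 7 EMT factors, 4 were higher, 0 were lower and 3 did not pass (median 0.70). Zeb1 and Zeb2, repressors of epithelial genes, were higher by 0.70 and 0.998 (adjusted p = 0.00153 and 0.000591), Twist1 by 1.45 and Prrx1 by 1.52, whereas Snai1 and Snai2 differed by 0.13 and 0.017 (adjusted p = 0.278 and 0.941).

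Genes whose pattern over the 10 tumours was most like the mean of the desmosome genes were found by the root mean square distance, after each profile's own mean was removed. Lamb3 was closest at 0.075 log2 units, at 7.22, 8.02, 7.46, 7.78 and 7.45 in ATC, against 8.70, 8.73, 8.66, 8.69 and 9.16 in PTC. It was highest in ATC replicates 2 and 4 and in PTC replicate 5, as were Dsc2 and Dsg2. The next were Abhd14b, Prss8, Cpq, Map7, D630039A03Rik, Cyb561, Cblc, Zfp750 and Stap2, at distances of 0.11 to 0.14, with differences of −1.23 to −0.998. Dividing each profile by its SD shared 1 gene, Lamb3, with these 10 and put Erbb3 first.

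Markers of other cell types moved with the groups too. Of 10 macrophage markers, 9 were higher, 0 were lower and 1 did not pass, with a mean level of 10.54 to 11.28 in ATC and 9.34 to 9.84 in PTC. That level did not overlap between the groups. With it as a covariate 0 of the 10 desmosome genes passed, and of all genes 0 were lower and 1 was higher, so tumour type and macrophage level cannot be told apart in that fit. The macrophage markers with the largest differences were Msr1 (1.79), Itgam (1.74) and C1qa (1.58). Of 6 T cell markers, 3 were lower and 0 higher (mean level 6.57 to 7.21 in ATC and 7.14 to 7.62 in PTC), with Cd2 at −1.57. Of 9 thyroid follicular markers, 3 were lower and 0 higher (6.69 to 8.24 in ATC and 8.05 to 9.11 in PTC), and Tg differed by −2.76 (adjusted p = 0.0583). Leaving out ATC replicate 2 gave −3.38 for Tg (adjusted p = 0.0194), and leaving out ATC replicate 4 gave −3.25 (adjusted p = 0.0337). Each single array left out ended 1 or more of the 3 thyroid calls (Tshr, Iyd and Slc26a4), with adjusted p-values of 0.0516 to 0.105.

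Of 10 squamous epithelial markers, which stand for a tissue rich in Pkp1, Evpl and Ppl, 4 were lower and 0 higher (6.49 to 6.80 in ATC and 6.85 to 7.11 in PTC). The calls of Ivl and Krt10 (−0.87 and −0.25) both ended without ATC replicate 1 or 3 or PTC replicate 4, which left 2 lower. The squamous keratin genes Krt4, Krt13 and Krt1 differed by 0.016, −0.010 and −0.047 (adjusted p = 0.747 to 0.952). Krt4 and Krt1 had group means of 5.74 to 5.86, below the array lower quartiles of 6.02 to 6.19, and their detection above background is not known. Of 8 airway markers, 5 were lower and 0 higher (6.21 to 7.79 in ATC and 8.41 to 9.01 in PTC), led by Cyp2f2 (−3.78). The Scgb3a2 call (−0.70) ended without ATC replicate 3 or 5 or PTC replicate 3 (adjusted p 0.0502 to 0.0535). Sftpc passed as lower without ATC replicate 5 (−0.81, adjusted p = 0.0481). The airway markers Foxj1 and Scgb1a1 differed by −0.022 and 0.198 (adjusted p = 0.903 and 0.360). Scgb1a1 too was below those quartiles, at 4.74 in ATC and 4.54 in PTC. The part of the thyroid, T cell, squamous and airway markers in the desmosome differences was not tested.

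Of 8 fibroblast markers 2 were lower and 0 higher, led by Lum (−2.07), and Pdgfra passed as higher without ATC replicate 2 (1.57, adjusted p = 0.00560). Col3a1 passed as lower without ATC replicate 5 (−0.45, adjusted p = 0.00127). Of 7 blood endothelial markers 2 were lower and 0 higher, led by Tek (−0.67). Pecam1 (−0.40) no longer passed once ATC replicate 1, ATC replicate 3 or any PTC tumour was removed (adjusted p 0.0603 to 0.117), while Kdr and Emcn (−0.55) passed without ATC replicate 2. Of 5 lymphatic endothelial markers Lyve1 alone changed (3.29), a gene that macrophages also express, and Pdpn passed as lower without ATC replicate 1 (−0.51, adjusted p = 0.0406). Of 4 B cell markers 1 was lower, namely Cd79b (−0.78). Among 6 skeletal muscle, 4 parathyroid and C cell, and 5 adipocyte markers, 0 passed.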

How the data were processed

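Expression was measured on 10 Affymetrix whole-transcript arrays. The deposited table holds log2 intensities of 35556 probe sets, with the log2 scale read from the values (2.79 to 14.15). Affymetrix Power Tools and limma appear in the submitters' processing notes. For background correction, normalization and build, the answer is not given in the sources used here. Precision is limited by the number of arrays.

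Of the probe sets, 21789 had 1 symbol in the platform annotation, 1621 several and 12146 none here, and 21698 matched RefSeq (GRCm38.p6) for current names. The probe set with the highest mean stood for its gene. ATC minus PTC was fitted with limma 3.58.1 in R 4.3.3 (no covariate or filter, Benjamini-Hochberg adjustment, 95% intervals). Pairs of related genes were compared with an exact permutation test in Python 3.11.15 (scipy 1.17.1). Both were tested on simulated data.

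The desmosome genes, 11 gene lists and 12 marker lists were chosen with earlier results of these data known. The rule allowed naming of all desmosome genes, the 3 genes per list that differed most, a fixed set of classical genes and the 10 most like genes; others were named after their values were seen. Groups and replicate numbers came from the titles. Same-numbered tumours did not deviate together (correlations −0.086 to 0.120) and were not paired. Alternatives covered a replicate block, probe set choice, dim genes, normalization, variance model, array weights, a macrophage covariate and each array left out.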

Additional observations from a re-analysis of the deposited data

Results flagged for a closer look

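In PTC replicate 5, Dsp was at 11.32 and Ppl at 10.02, each far above the other 4 PTC tumours (10.30 to 10.60 for Dsp and 8.93 to 9.19 for Ppl). The gap to the next tumour took 0.71 of the whole PTC range for Dsp, just past the limit for 5 values, and 0.760 for Ppl. Chance alone marks about 1 in 20 groups in this way, and 20 groups of 5 were examined. Without PTC replicate 5, both genes were still lower in ATC (Dsp −1.43 and Ppl −0.74, limma adjusted p = 0.00667 and 0.00585).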

How the results depend on the processing

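Apart from the macrophage covariate, 7 to 9 of the desmosome genes were lower and 0 higher under every setting, and 8 of the 8 tested when genes under the median were left out; their median difference lay between −1.22 and −0.93. With the macrophage marker level as a covariate, 0 passed, the median was −0.43, and the sign turned for Pkp1 (0.22), Pkp2 (0.70) and Ppl (0.34); this covariate did not overlap between the groups. The replicate block, for numbers that did not pair the tumours, gave 7 lower, without Pkp1 (−0.35, adjusted p = 0.0559) and Pkp2 (−0.48, adjusted p = 0.0535), and gave 0.82 for Evpl minus Ppl and 0.67 for Dsg2 minus Dsc2 (exact sign-flip permutation test, adjusted p = 0.188 each); with 5 pairs that test cannot give a p below 0.0625, so it could not pass and says nothing about stability. Of the ATC arrays, 1 of 5 ATC arrays correlated best with its own number. With ATC replicates 2 and 5 and PTC replicate 5 left out, chosen after seeing the data, Evpl minus Ppl was 0.66 and Dsg2 minus Dsc2 0.96 (exact permutation test, adjusted p = 0.0857 each, both at the smallest p that 3 against 4 tumours allow, 0.0286). Without single arrays Dsg2 minus Dsc2 ranged from 0.58 to 0.80. Dividing profiles by their SD kept 1 of the 10 most like genes. Where no cause is named, the cause was not tested. Signal over background is not known. This limits Dsg2 and Dsc2 in the ATC tumours where they were lowest, as well as Pkp1, Pkp3 and Evpl. It also limits Dsc3 in ATC, and Dsg1b, Dsg1c, Dsg3, Dsg4, Ttr, Krt1, Krt4 and Scgb1a1 in both groups.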
